A study of Homo sapiens with 6 samples.

Results

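The chromatin accessibility of 10 genes of the Wnt pathway and of liver Wnt signalling was examined in HLF cells, a human liver cancer line, with and without the menin inhibitor SNDX-5613. The genes were CTNNB1, AXIN1, APC, TCF7L2 and LEF1 of the pathway itself and AXIN2, NKD1, LGR5, TBX3 and GLUL among its target genes. A site belonged to a gene when its strongest summit lay within 1 kb of any of the gene's annotated transcription start sites, in the gene body or within 20 kb of it (GENCODE release 44, hg38). By this rule 137 of 166021 sites found in the series belonged to the 10 genes, of which 20 were promoter sites, 78 were in gene bodies and 39 were in the flanks. These are called member sites below.

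ATAC-seq, in which a transposase cuts and tags open chromatin, was performed on 3 DMSO libraries and 3 libraries from cells given 5 μM SNDX-5613. SNDX-5613 (revumenib) blocks the binding of menin to MLL1, a histone H3 lysine 4 methyltransferase. All 6 libraries came from the same parental cell line, with no genetic change named in the labels, and were labelled as the same batch. The labels give 24 h for both groups, whereas the study's methods describe a treatment of several days, so the duration of exposure is uncertain. Per the study's methods, a replicate was a culture dish divided between treated and untreated cells; no source says that equal replicate numbers mark the same dish, or that the dishes were grown independently, so the p-values below measure only the spread between these libraries.

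In the absence of a Wnt ligand, cytoplasmic β-catenin is held low by a destruction complex built on the scaffolds AXIN and APC. Ligand binding disables the complex, and β-catenin then enters the nucleus and binds the TCF/LEF factors at target genes. In the liver the pathway is best known for zonation: it is active around the central vein, where hepatocytes express glutamine synthetase, and it is often activated by mutation in liver cancer.

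Each library had its own list of peaks, with 40568 to 113675 merged regions per library. One treated library, SNDX-5613 replicate 3, was far shallower than the rest: its background pileup, the number of fragments expected by chance at a position, was 0.211 against 0.997 to 1.51 in the other 5 libraries, or 16.2% of their median. A called peak there needed at least 14.2 times the background, against 4.60 to 6.02 times in the others. Results are therefore also given for the 5 deeper libraries alone. Promoter peaks in all 6 libraries were found for 4 of 4 mesenchymal markers, for 4 of 4 epithelial markers and for 0 of 8 hepatocyte markers, with none in any library at ALB, APOA1, FGB or HNF4A. APOB and TTR carried one in the 5 deeper libraries, and SERPINA1 and TF in 2 libraries each. Of the blood markers PTPRC and CD3E and the endothelial markers PECAM1 and CDH5, none had one in every library, and CDH5 had one in fewer.

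Accessible chromatin was found at all 10 genes, and 28 of the 137 sites carried a peak in all 6 libraries. That share, 20.4%, was close to the 20.1% over all sites of the series. All the genes but LEF1 had a promoter peak in every library, and the promoters of APC, TCF7L2, CTNNB1, AXIN1 and AXIN2 ranked in the upper part of all shared sites while that of LGR5 ranked at the bottom. No member site passed the test for a difference between DMSO and SNDX-5613. A site inside an APC intron had the largest difference of the 28, and its lower values in the treated libraries did not pass the test either.

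**Figure D1:**
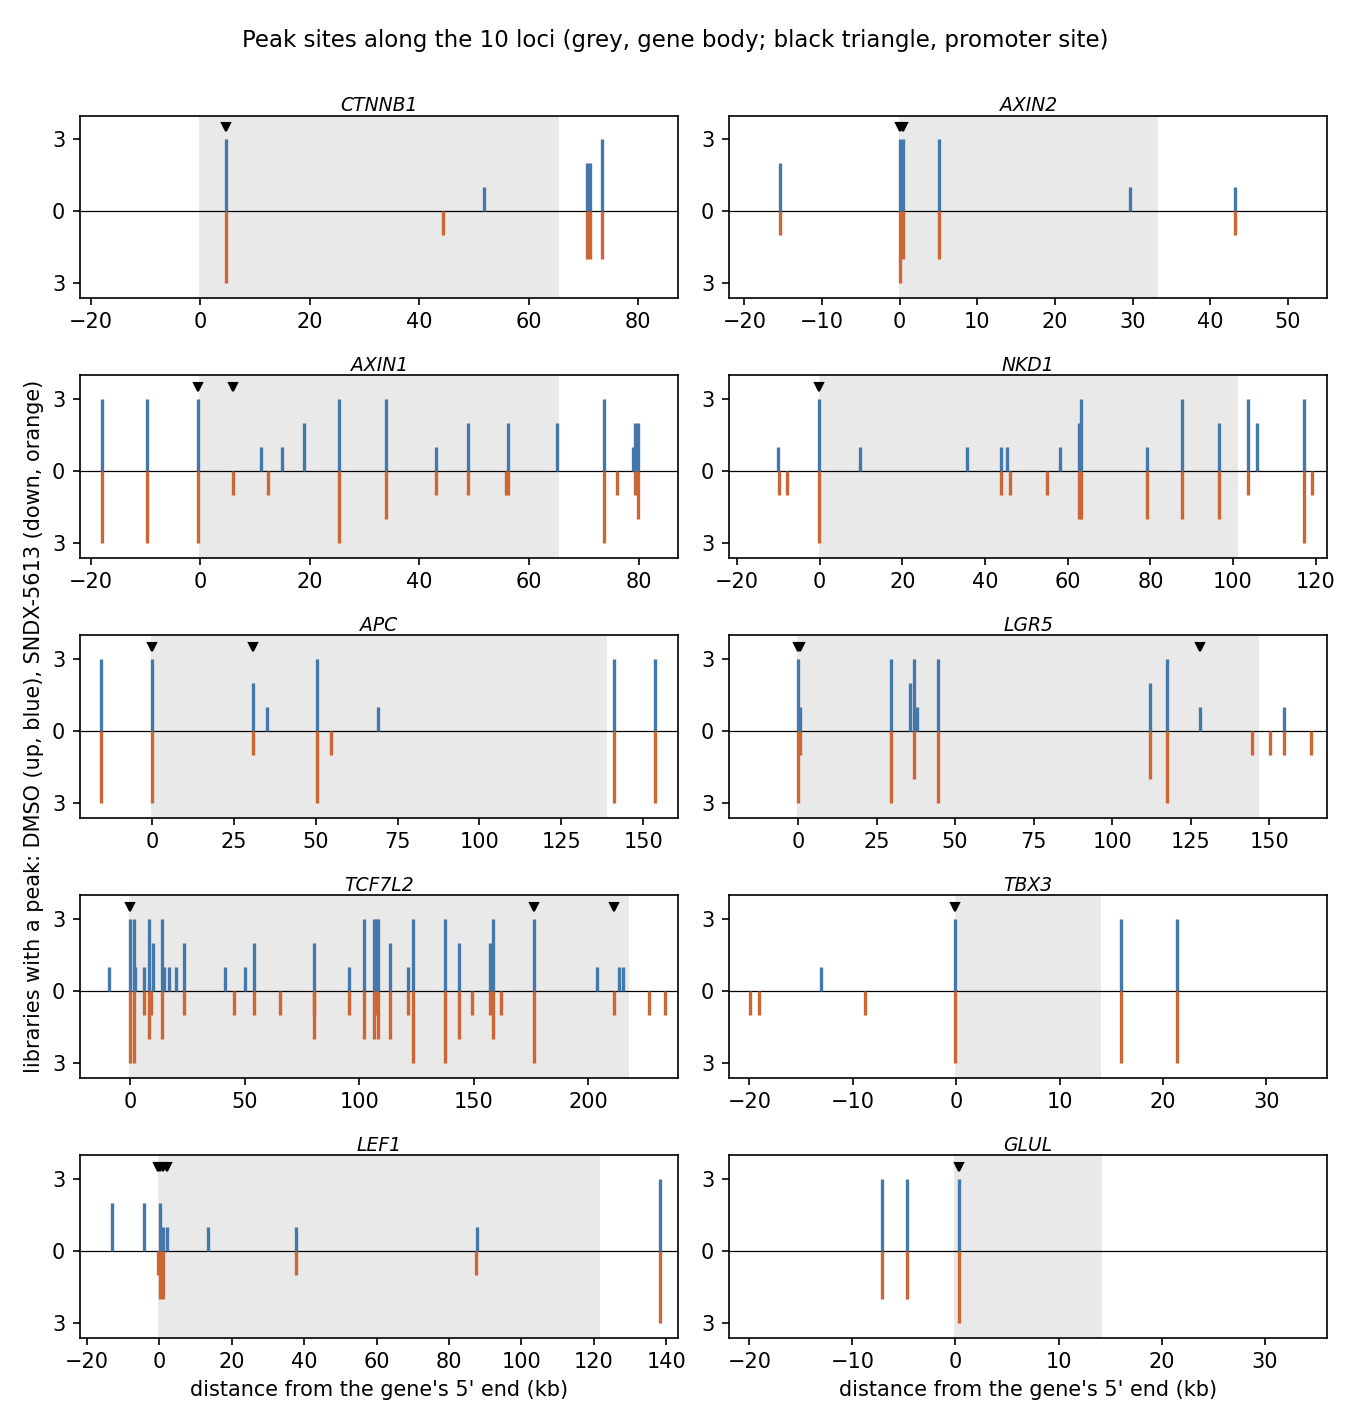
Each vertical line is a peak site, at its distance in kb from the 5′ end of the gene, and its height is the number of DMSO libraries (blue, upward) or SNDX-5613 libraries (orange, downward) with a peak there. Of the 137 sites, 74 had a peak in both groups, and TCF7L2 held the most sites, 41.

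Peak regions in the 10 loci numbered 61, 92 and 76 in the DMSO group, and 87, 69 and 34 were found after SNDX-5613. The means were 76.3 ± 15.5 and 63.3 ± 27.0 (SD, n = 3 each), and the groups overlapped. The lowest count belonged to the shallow library, and without it the treated mean was 78. TCF7L2, the longest of the genes, held 41 sites, AXIN1 and NKD1 20 each, LGR5 14, LEF1 11, APC 9, TBX3 7, CTNNB1 and AXIN2 6 each, and GLUL 3. Per 100 kb of locus the sites ranged from 5.04 at APC to 19.0 at AXIN1, with 15.9 at TCF7L2. Many sites were seen once: 56 of the 137 (40.9%) had a peak in a single library, against 36.2% of all sites.

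No member site was open in each of the 3 SNDX-5613 libraries and in no DMSO library, a pattern held by 0.147% of all sites. The opposite pattern, a peak in all 3 DMSO libraries and in no treated library, was also found at 0 member sites and at 1.18% of all sites. Leaving out the shallow library, 0 member sites had a peak in both deeper SNDX-5613 libraries and in no DMSO library (2.39% of all sites), or in all 3 DMSO libraries and in neither of the deeper treated ones (1.21%). A peak in DMSO libraries only was seen at 35 member sites, none of them in more than 2 libraries. A peak in SNDX-5613 libraries only was seen at 28 sites, each in 1 library. The share of all sites with a peak in a single group is not given here. The treated group also includes the shallow library, so these counts are not results about the members.

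To compare peak strength between libraries of different depth, the 33405 sites of the series that carried a peak in every library were ranked within each library by the −log10 p of their strongest summit. The rank is given as a percentile, where 100 is the strongest shared site. Fragment pileups at the summits, recovered from the deposited values, are given beside the percentiles. Tests were made with limma on normal scores of the ranks over all 33405 sites with Benjamini-Hochberg adjustment. An exact permutation test of 3 against 3 libraries cannot give a p below 0.1.

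**Figure D2:**
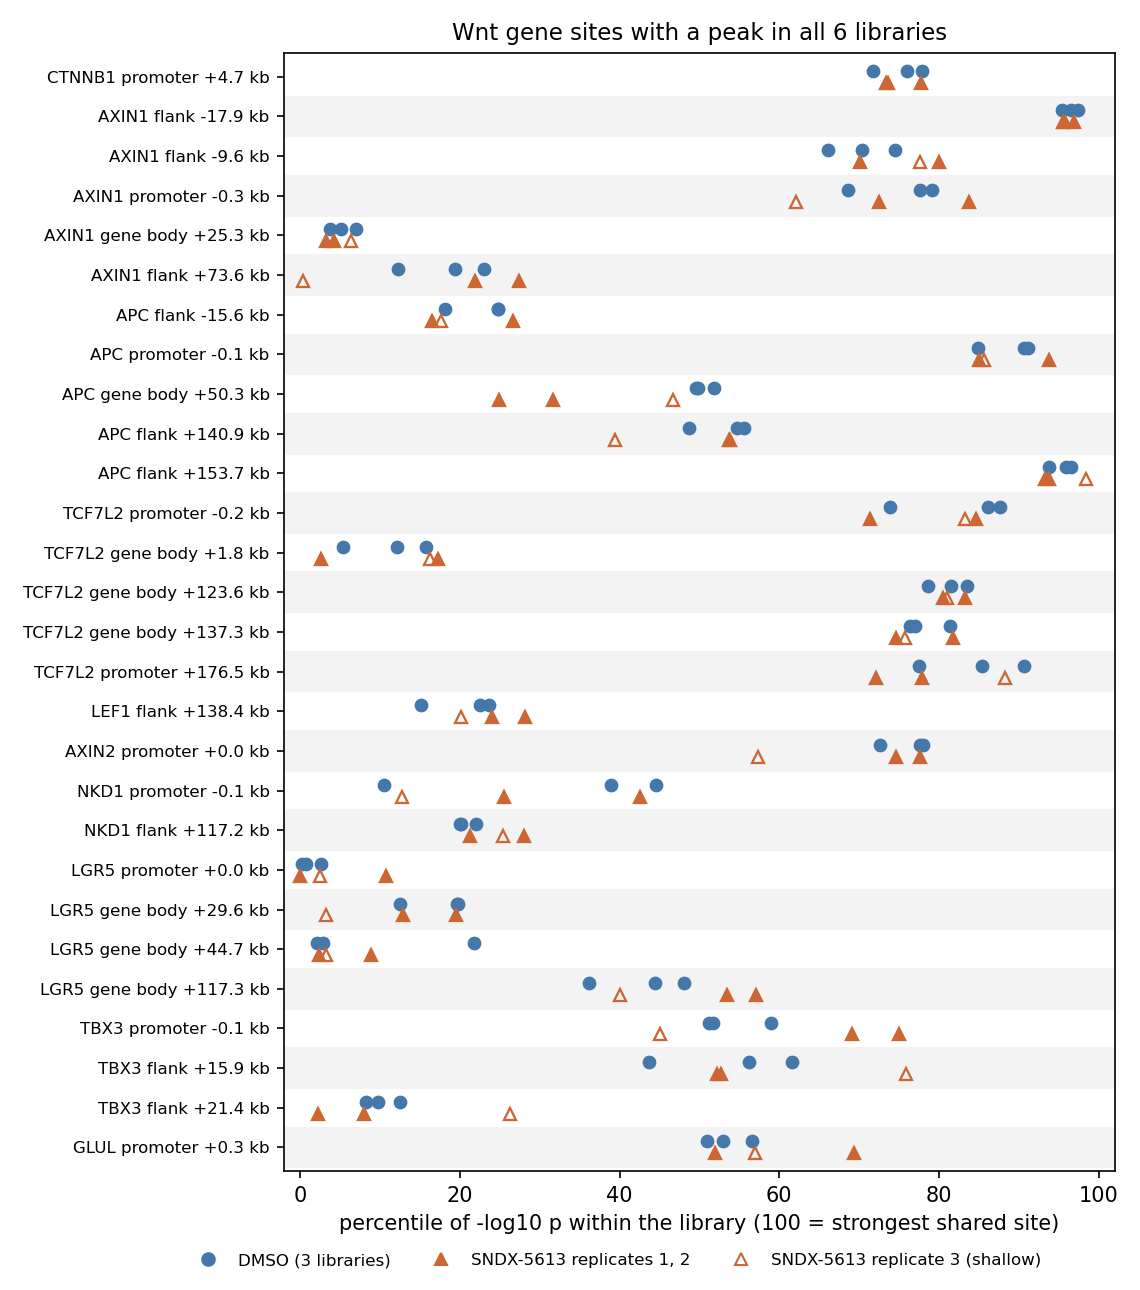
Percentile of −log10 p (x axis) in each library for the 28 member sites open in every library, named by gene, class and distance from the gene's 5′ end; circles are DMSO, triangles SNDX-5613, and open triangles the shallow SNDX-5613 replicate 3. Only at the APC site 50.3 kb into the gene do all treated libraries lie on the same side of all DMSO libraries.

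APC, a scaffold of the destruction complex and a tumor suppressor, has an upstream and a downstream promoter. The upstream promoter site (chr5:112707197-112708088) had the highest mean percentile among the promoters of the 10 genes. By fold enrichment the internal TCF7L2 promoter stood above it in every library except SNDX-5613 replicate 1. The upstream APC site had percentiles of 91.2, 84.9 and 90.7 in DMSO and 93.8, 85.1 and 85.6 with SNDX-5613. Its pileup was 167, 197 and 215 fragments in DMSO and 210, 172 and 31 with SNDX-5613, the last in the shallow library. The groups overlapped, with a difference of −0.77 percentile points (95% interval −7.08 to 5.55; adjusted p = 0.97, limma). At the downstream promoter, 30.95 kb into the gene, a weak site had a peak in DMSO replicates 2 and 3 and in SNDX-5613 replicate 1, with 8 to 12 fragments.

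The APC site with the largest difference lay in an intron, at chr5:112757537-112758022, 2910 bp from the nearest start site and 50.3 kb from the gene's 5′ end. Its percentiles were 49.9, 49.6 and 51.9 in DMSO and 24.9, 31.7 and 46.7 with SNDX-5613. All treated values lay below all DMSO values, the shallow library's being nearest to them. The difference was −16.0 points (95% interval −31.97 to −0.03), with an exact permutation p of 0.1, the smallest possible, and an adjusted p of 0.46 (limma). Relative to the background, the pileup was 41.1, 41.4 and 36.6 times in DMSO, 24.6 and 23.8 times in the deeper treated libraries and 37.9 times in the shallow one, where 8 fragments were counted. On that scale the groups overlapped through the shallow library. Ranked among the sites of the 5 deeper libraries, the site stood at 70.3, 70.5 and 72.2 in DMSO and at 49.7 and 57.0 with SNDX-5613 (adjusted p = 0.12, limma).

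The 201 bases around the summit of that intronic site are shown because it holds the largest difference among the shared sites (chr5:112757701-112757901, hg38, plus strand). They were 33.3% G and C, against a median of 53.5% in the 18 shared member sites outside member promoters, and held neither CTTTGAT nor the NF-Y, AP-1 or TEAD motif described below, while CTTTGTA in them matches a widened TCF/LEF motif.
APC intronic site: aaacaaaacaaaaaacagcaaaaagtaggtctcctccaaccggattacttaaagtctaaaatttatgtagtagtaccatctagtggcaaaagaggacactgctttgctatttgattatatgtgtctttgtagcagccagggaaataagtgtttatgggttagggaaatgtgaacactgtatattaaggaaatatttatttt

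The other shared sites of the APC locus were in the flanks. The strongest, at percentiles of 93.3 to 98.5, coincided with the promoter of the neighbouring gene SRP19. Another lay 140.9 kb from the 5′ end, just past the gene's 3′ end, at 39.4 to 55.6, and the last lay 15643 bp upstream, at 16.6 to 26.7. The groups overlapped at each of them.

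AXIN1, the limiting scaffold of the destruction complex, had a promoter site at chr16:352602-353392. Its percentiles were 68.6, 77.7 and 79.2 in DMSO and 83.8, 72.5 and 62.1 with SNDX-5613. The highest and the lowest value were both from treated libraries, and the difference of −2.33 points (95% interval −14.40 to 9.73; adjusted p = 0.94, limma) was smaller than the SD within either group. Upstream of the gene, a site 17899 bp away at the promoter of MRPL28 was among the strongest of the series, at 95.4 to 97.4 in all 6 libraries. A site 9631 bp upstream with no annotated start site nearby stood at 66.2 to 80.1, as high as the AXIN1 promoter itself. Within the gene, the shared intronic site was weak, at 3.29 to 6.99, as was a site past the 3′ end, at 0.33 to 27.4 with its lowest value in the shallow library.

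CTNNB1 encodes β-catenin, the effector of the pathway. Its promoter site (chr3:41198808-41199788) stood at 77.9, 71.7 and 76.1 in DMSO and at 73.6, 77.8 and 73.4 with SNDX-5613, with pileups of 117 to 143 fragments in the 5 deeper libraries. The SD within a group was 3.16 and 2.45 points, and the groups overlapped throughout (difference −0.29 points, 95% interval −8.03 to 7.45; adjusted p = 0.99, limma). The promoter was the only shared site of this locus, and the 2 other sites in the gene body were each seen in a single library. The flank past the 3′ end held 3 further sites, the strongest of which had 17 to 22 fragments and a peak in the 5 deeper libraries.

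TCF7L2, a DNA-binding partner of β-catenin, had a peak in all 6 libraries at its main promoter, at an internal promoter 176.5 kb into the gene, from which shorter transcripts start, and at 3 intronic sites. The main promoter (chr10:112949845-112950401) stood at 86.2, 87.6 and 73.9 in DMSO and at 84.6, 71.4 and 83.2 with SNDX-5613. The internal promoter (chr10:113126525-113127005) stood at 77.4, 90.6 and 85.4 in DMSO and at 72.2, 77.9 and 88.3 with SNDX-5613. The differences were −2.84 points (95% interval −12.79 to 7.11) and −5.02 points (95% interval −14.91 to 4.88), both with overlapping groups and adjusted p values of 0.85 and 0.74 (limma).

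Deep in the gene, 123.6 and 137.3 kb from the 5′ end, a pair of intronic TCF7L2 sites were as accessible as its promoters. The first (chr10:113073551-113074166) stood at 78.6, 83.6 and 81.5 in DMSO and at 80.5, 83.3 and 81.0 with SNDX-5613, and the second (chr10:113087127-113087883) at 77.1, 81.5 and 76.4 against 81.8, 74.6 and 75.7. The SD within a group was 1.47 to 3.87 points, and the 95% intervals of the differences were −5.67 to 6.45 and −8.37 to 6.47 points. Over all shared sites away from promoters the median percentile was 35.0. Both contained the AP-1 motif TGANTCA within 100 bp of the summit, a motif held by 17.8% of all shared sites. It was found once in the first site and more than once in the second. The first site also held a TEAD match 93 bp from the summit. The AP-1 matches are in capitals here (hg38, plus strand).
TCF7L2 +123.6 kb, chr10:113073785-113073814: gggcctcagtgTGACTCAccacaccggact
TCF7L2 +137.3 kb, chr10:113087457-113087486: aggcagtaaggTGAGTCAttgctgtggctg
TCF7L2 +137.3 kb, chr10:113087542-113087571: tgcttgccgaaTGACTCAcgctcctgttta

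Of the other TCF7L2 sites, 6 intronic ones had a peak in the 5 deeper libraries but not in the shallow one. A site 106.6 kb from the 5′ end had the largest difference of these, with pileups of 35, 49 and 46 fragments in DMSO and 26 and 29 with SNDX-5613. Its percentiles among the sites of the 5 libraries were 44.2, 46.0 and 44.9 in DMSO and 18.7 and 22.3 with SNDX-5613, which did not overlap. The difference of −24.57 points had an unadjusted p of 0.0043 and an adjusted p of 0.17 (limma). The remaining shared intronic site, 1.77 kb into the gene, stood at 2.65 to 17.2, and 19 of the 41 sites of the gene were seen in 1 library.

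LEF1, the lymphoid member of the TCF/LEF family, was the least accessible of the pathway genes. None of its 4 promoter sites had a peak in every library. The strongest (chr4:108168505-108168995) had a peak in DMSO replicates 2 and 3 and in SNDX-5613 replicates 1 and 2, with 9 to 19 fragments. The other promoter sites had a peak in 1 to 3 libraries. The single shared site of the locus, at chr4:108030424-108030598 beyond the 3′ end, stood at 15.1 to 28.2.

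AXIN2, a homolog of AXIN1 induced by the pathway it inhibits, is the most general Wnt target. Its promoter site (chr17:65561424-65562127) stood at 77.6, 72.6 and 78.1 in DMSO and at 77.6, 74.6 and 57.3 with SNDX-5613. The low value came from the shallow library, with 16 fragments. Without that library the group difference went from −6.25 (95% interval −17.95 to 5.44; adjusted p = 0.73) to 0.027 points. A second promoter site, 460 bp into the gene, had 17 to 34 fragments and a peak in the 5 deeper libraries, as did an intronic site 5.07 kb into the gene.

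NKD1 encodes an inhibitor of Dishevelled that is likewise induced by Wnt signalling. Its promoter site (chr16:50548084-50548802) varied most of the promoters between DMSO libraries, with percentiles of 44.5, 39.0 and 10.5 in DMSO and 42.5, 25.6 and 12.8 with SNDX-5613. The SD within a group was 18.3 and 14.9 points, and the group difference was −4.37 (95% interval −26.41 to 17.68; adjusted p = 0.93, limma). The DMSO replicate with the low value had 29 fragments against 50 and 56 in the others. An exonic NKD1 site 87.8 kb into the gene had 19, 23 and 28 fragments in DMSO and 30 and 35 in the deeper SNDX-5613 libraries, and no peak in the shallow library (adjusted p = 0.52 in the 5 libraries, limma). A shared site beyond the 3′ end had a mean of 22.8 over the 6 libraries.

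LGR5, an R-spondin receptor and stem cell marker, had the weakest of the promoters with a peak in all 6 libraries. The site (chr12:71439541-71440234) stood at 0.21, 0.78 and 2.67 in DMSO and at 0.031, 10.8 and 2.43 with SNDX-5613, at the very bottom of the shared sites. Pileups were 7, 11 and 15 fragments in DMSO and 8, 26 and 4 with SNDX-5613. The strongest LGR5 site was intronic (chr12:71556951-71557614), 117.3 kb into the gene, at 48.1, 44.4 and 36.2 in DMSO and 53.5, 57.1 and 40.0 with SNDX-5613. There the deeper treated libraries lay above all DMSO libraries and the shallow one did not (difference 7.32 points, 95% interval −8.33 to 22.98; adjusted p = 0.74, limma). The other shared intronic sites, 29.65 and 44.7 kb into the gene, stood at 3.29 to 19.8 and 2.05 to 21.8.

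TBX3, a T-box transcription factor and a Wnt target in liver, had the largest difference upward among the shared sites. Its promoter site (chr12:114683958-114684936) stood at 51.7, 51.2 and 59.0 in DMSO and at 69.1, 74.9 and 45.1 with SNDX-5613. The treated libraries therefore included both the highest values and the lowest, the lowest being the shallow library. The pileup relative to the background was 73.2, 69.7 and 71.2 times in DMSO and 99.2, 94.0 and 71.1 times with SNDX-5613. The difference was 9.10 points (95% interval −7.92 to 26.12; exact permutation p = 0.4; adjusted p = 0.67, limma). In the 5 deeper libraries the groups did not overlap, with a difference of 11.1 points, an unadjusted p of 0.0031 and an adjusted p of 0.15. A site 15.9 kb from the 5′ end, beyond the gene's 3′ end, ranked as high as the promoter, at 43.7 to 75.9, and another at 21.4 kb stood at 2.18 to 26.3.

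GLUL encodes glutamine synthetase, the classic perivenous Wnt target of hepatocytes. Its promoter site (chr1:182391268-182391981) stood at 50.9, 56.5 and 53.0 in DMSO and at 69.4, 51.9 and 56.9 with SNDX-5613. SNDX-5613 replicate 1 stood far above the DMSO values and replicate 3 just above them, while replicate 2 lay within their range (difference 5.93 points, 95% interval −7.86 to 19.71; adjusted p = 0.77, limma). Upstream, a site 4.71 kb away had a peak in the 5 deeper libraries with 32 to 48 fragments. No site was found within the gene body away from the promoter.

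By mean percentile over the 6 libraries the promoters ordered as APC (88.5), the internal and the main TCF7L2 promoter (82.0 and 81.2), CTNNB1 (75.1), AXIN1 (74.0), AXIN2 (72.9), TBX3 (58.5), GLUL (56.4), NKD1 (29.1) and LGR5 (2.81). The library ranges of neighbours in this order overlapped at each step except between GLUL, at least at 50.9, and NKD1, at most at 44.5. NKD1, at least at 10.5, and LGR5, at most at 10.8, overlapped only at their edges. The median over the 10 shared promoter sites was 73.5, against 73.9 over all shared promoter sites of the series. The median over the other 18 was 32.6, against 35.0 over all shared sites away from the promoter of any gene. The classes differ, since the 18 include sites at promoters of other genes, such as SRP19 and MRPL28. The member promoters were rich in G and C, with a median of 71.1% and 22.5 CpG dinucleotides in 201 bases, against 67.2% and 18 over all shared promoter sites.

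Across the 28 shared sites, limma called 0 at an adjusted p below 0.05, where 0.222% of all shared sites were called. The lowest adjusted p was 0.46, and 1 of 28 had an unadjusted p below 0.05, against 10.1% of all shared sites. The mean was higher with SNDX-5613 at 11 sites and lower at 17. Values did not overlap between groups at 0 sites in the higher direction (8.54% of all shared sites) and at 1 site in the lower direction (8.08%). The median difference was −0.50 percentile points against −0.093 over all shared sites, and the median size of a difference was 3.45 points against 4.35. Differences ranged from −16.0 to 9.10 points.

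Without the shallow library, 42 member sites were shared by the other 5 libraries and limma again called 0 (0.575% of all such sites), with a lowest adjusted p of 0.12. An unadjusted p below 0.05 was found at 4 of the 42, against 12.3% over all sites. Higher without overlap were 6 sites (14.3% of all) and lower without overlap 4 (14.4%), and the median difference was 0.28 points. By this count the members lay near the background in both directions.

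**Figure D3:**
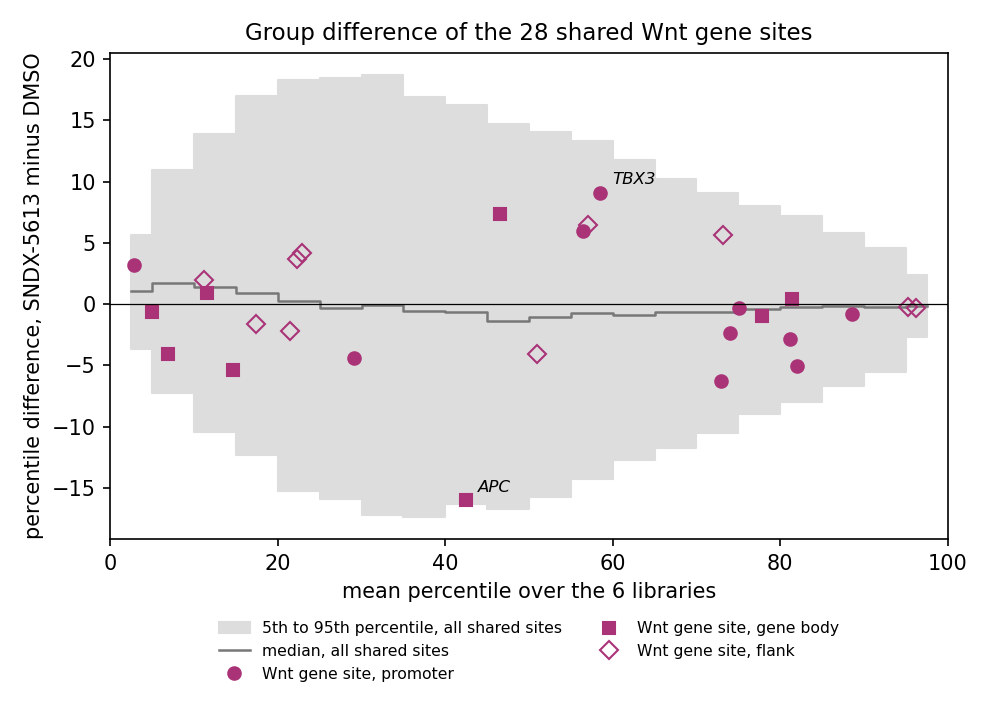
Percentile difference (SNDX-5613 minus DMSO, y axis) against the mean percentile over 6 libraries (x axis) for the 28 shared member sites; the grey band holds the 5th to 95th percentile of all 33405 shared sites at the same level and the grey line their median. The APC intronic site (−16.0) and the TBX3 promoter (9.10) are the extremes, and the band widens toward the middle ranks.

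The motif bound by TCF/LEF factors (CTTTGAT, either strand) was searched within 100 bp of each site's strongest summit, and the matches are shown because these letters are the recognition sequence of the pathway's own factors. It was present in 2 of the 137 member sites (1.46%), against 1.86% of all sites. Both were promoter sites with a peak in all 6 libraries, those of the feedback targets AXIN2 and NKD1. Among shared sites within 1 kb of the start of any coding or long non-coding gene, 2 of 14 in the member loci had the motif, against 0.824% of all 14690. With the widened motif it was again 2 of 14, against 4.75% of all. The 2 sites belong to genes listed for being Wnt targets, so these shares are descriptions and enrichment was not tested. In plus-strand coordinates CTTTGAT lay 61 bp before the AXIN2 summit, which is in an annotated exon. AXIN2 is on the minus strand, so that is downstream of the summit in the gene's direction. At NKD1 the motif lay 50 bp past the summit, upstream of the gene (hg38, plus strand, motif in capitals).
AXIN2 promoter, chr17:65561557-65561586: gccaggaccttATCAAAGcgcagccggctc
NKD1 promoter, chr16:50548301-50548330: accagccttgcCTTTGATgcgccgcaccgg
These are the promoters with mean percentiles of 72.9 and 29.1. At NKD1 the group difference of −4.37 points was smaller than the SD within either group (18.3 and 14.9). At AXIN2 the difference of −6.25 points exceeded the SD in DMSO (3.04) but not that of the treated libraries (10.96). The treated libraries include the shallow one. The motifs printed are letter matches, and binding was not tested.

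The CCAAT motif of NF-Y (CCAAT followed by C or G and then by A or G, either strand), a promoter-binding factor, was found in 15 member sites (10.9%, against 9.92% of all sites). Among the shared promoter sites of the member loci it was found in 4 of 14, against 21.5% of all. Within 250 bp it was again 4 of 14, against 26.3% of all. All 4 within 100 bp belonged to target genes, AXIN2, GLUL, NKD1 and TBX3, and are shown for that reason. A difference between target and pathway genes was not tested, and RefSeq promoters of APC and LEF1 also held the motif, as given below. The AXIN2 match lay 6 bp from the summit and the GLUL promoter held the motif on either side of its summit.
AXIN2 promoter, chr17:65561624-65561653: atcccgccgcgCCAATCAcagccgcgctcg
GLUL promoter, chr1:182391839-182391868: ccccggtgcccTGATTGGctcccagcggcc
GLUL promoter, chr1:182391901-182391930: gggccccgcggCCATTGGgcgaggagcccg
NKD1 promoter, chr16:50548320-50548349: cgccgcaccggCCAATGGgcgcgcggggag
TBX3 promoter, chr12:114684223-114684252: cggaggcctctTGATTGGctctttgacgct
None of the promoter sites of APC, AXIN1, CTNNB1, TCF7L2 or LGR5 in all 6 libraries held these letters within 100 bp of the summit. AP-1 (TGANTCA) was present in 24 member sites (17.5%, against 15.5% of all) and TEAD (CATTCC followed by A or T) in 9 (6.57%, against 11.2%).

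RefSeq promoter sequences (GRCh38.p14, 250 bases before to 50 after the start) were matched for 6 of the 10 genes, CTNNB1, AXIN1, APC, TCF7L2, LEF1 and GLUL. CTTTGAT was found in none of them, against 2.62% of all 35116 RefSeq promoters. AXIN2 and NKD1, whose promoter sites held the motif, were not among the 6 genes. So few promoters cannot show a departure from that share. The NF-Y motif was found in a GLUL promoter, in the downstream APC promoter and in a LEF1 promoter. APC, TCF7L2 and GLUL each had several RefSeq promoters, so these hits are not a share of the 6 genes. Over all RefSeq promoters the share with the motif was 16.6%.

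The consensus sets, which combine the replicates of each group, held 66 DMSO and 60 SNDX-5613 regions in the 10 loci. In the DMSO set, 8 of the 66 had no overlapping region in the SNDX-5613 set, against 11.7% over the whole set. In the SNDX-5613 set, 3 of the 60 had no counterpart, against 11.1%. The 8 lay at TCF7L2 (4), AXIN1 (2), CTNNB1 and NKD1, and the 3 at TCF7L2 (2) and AXIN2. Several of these regions, such as those at CTNNB1 and AXIN2, overlapped sites with a peak in libraries of both groups. Absence from a consensus set is therefore not absence of a peak.

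To place the 10 genes in the pathway, the promoters of 95 other Wnt pathway genes were examined. A peak in all 6 libraries was found at 66, in the 5 deeper libraries alone at 9, in fewer at 10 and in none at 10. Cytoplasmic transducers were almost all accessible (14 of 15 in all 6 libraries), as were nuclear cofactors (11 of 12) and receptors (13 of 15). The share over all genes is not given here, so whether these counts depart from it cannot be said. RNF43, ZNRF3 and NOTUM stand in the target list as well as in another list. BTRC, which marks β-catenin for degradation, and the β-catenin antagonist CTNNBIP1 had mean percentiles of 97.5 and 97.8, and the receptor FZD5 stood at 95.3. By contrast, 8 of 19 ligand promoters had a peak in all 6 libraries and 4 had none, those of WNT3A, WNT6, WNT7B and WNT8B. Of the 8, WNT2B was the strongest, at 76.0, and WNT3, WNT4, WNT5A and WNT10B stood below 8.

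The secreted inhibitors had a promoter peak in all 6 libraries at 4 of 11 genes, in the 5 deeper ones alone at 2, in fewer at 3 and in none at 2. Other Wnt targets had one in all 6 libraries at 9 of 10, among them SOX9 at 78.7 and BIRC5 at 90.1. SP5, a further general Wnt target, had no promoter peak. Of the R-spondin axis 5 of 8 were accessible in all 6 libraries, with the ligase ZNRF3 at 86.2 and the receptor LGR4, a relative of LGR5, at 82.6. Of 6 other perivenous liver genes, CYP2E1, OAT and SLC1A2 carried a promoter peak in every library and CYP1A2 in none. The 66 genes had 80 promoter sites in the test, and limma called 0 of them, with 7 higher and 7 lower without overlap and a median difference of 0.50 points. Over all shared sites 0.222% were called, 8.54% were higher and 8.08% lower without overlap, so these promoters lay near the background. In the 5 deeper libraries, 106 sites were tested and 0 were called. Among the receptors, LRP5 had a difference of −16.0 points (adjusted p = 0.53, limma), which rested on the shallow library, at 27.4, and was −2.21 in the 5 deeper libraries. Of the nuclear cofactors TCF7L1 had one of 15.3 points (adjusted p = 0.59), and of 20.7 in the 5 deeper libraries (adjusted p = 0.13).

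**Figure D4:**
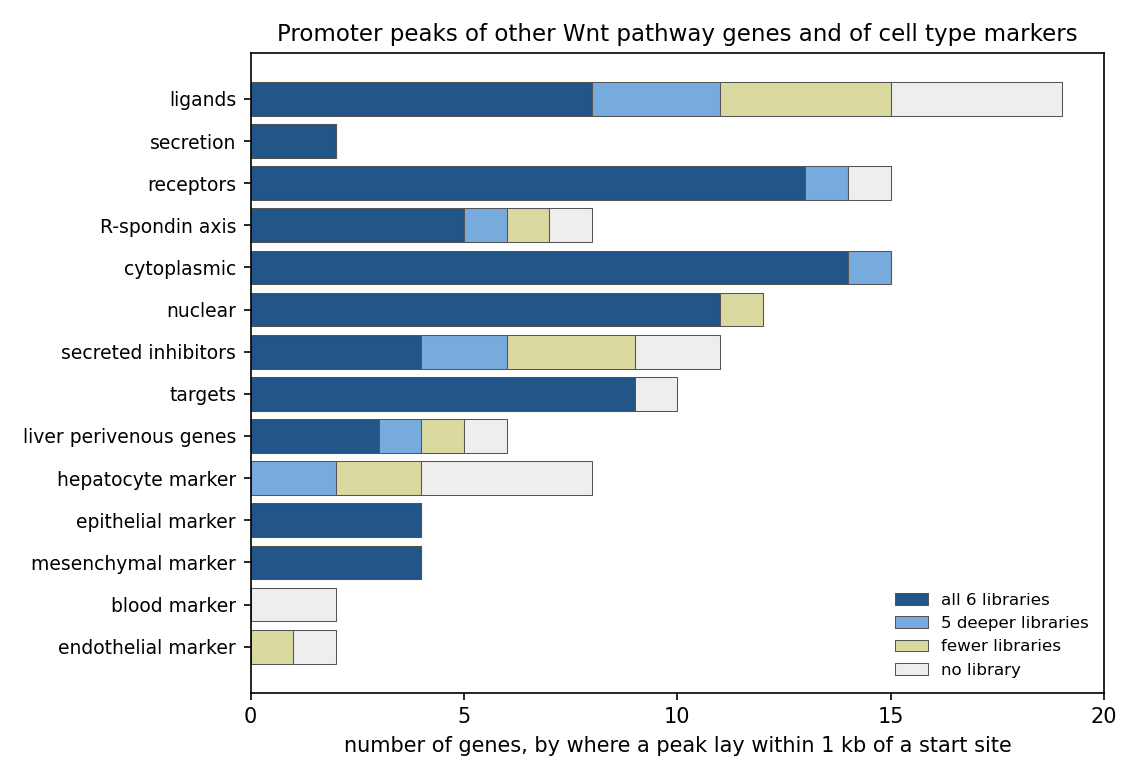
Number of genes (x axis) in each list by where a peak lay within 1 kb of a start site: in all 6 libraries, in the 5 deeper ones alone, in fewer, or in none. Cytoplasmic, nuclear and receptor genes are mostly dark, at 14 of 15, 11 of 12 and 13 of 15, whereas ligands (8 of 19) and secreted inhibitors (4 of 11) are not and hepatocyte markers (0 of 8) have no dark bar.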

How the data were processed

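HLF ATAC-seq libraries were grouped by their labels, 3 per group. The authors' peak lists hold, per summit, a fold enrichment over background (a ratio) and −log10 p and −log10 q values, called per library without pooling. The deposited consensus sets hold a −log10 p per region. The submitters' processing notes name Trim Galore 0.6.7, Bowtie2 2.3.4.1, Picard 2.20.0, SAMtools, deepTools 3.5.4 and MACS2. A Tn5 shift was not given in the sources used here, and positions are summits, so a shift of a few bases matters little. The authors tested counts with DESeq2, but no counts were used here.

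Overlapping regions (1 bp or more) on the 22 autosomes, X and Y were merged into sites. Whole fragment pileups were solved from the fold and p values, and 100% or nearly so of the summits gave one within 0.01%. Where a peak list holds no peak, the site may still be open below the threshold (q of 0.05). Percentiles were ranked within libraries and tested with limma 3.58.1 (R 4.3.3). On simulated data with 200 of 33405 sites changed, shifts of 1 and 2 normal scores were recovered at 23.5% and 88%, and shifts of 0.5 at 0%. 95% intervals are from limma on percentiles. Named sites were, per gene, the strongest promoter site, the strongest other site, the shared site with the largest difference, any site gained, lost or called, and further sites chosen after their values were seen. The members, lists and motifs were chosen with earlier results of these data known, and 2 marker genes are not reported here. Alternatives were a stricter threshold, equal numbers of regions, ranking by fold enrichment, fixed windows, a 50% cover rule, flanks of 10 and 50 kb, other scales, array weights, a replicate block and leaving out each library.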

Additional observations from a re-analysis of the deposited data

How the results depend on the processing

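Under every alternative limma called 0 member sites, and no member site was gained. Over the whole series, ranking by fold enrichment called 0 sites, leaving out a DMSO library 14 to 18, and array weights 297 higher and 107 lower. With so few calls among all sites, a 0 among the members carries little weight. Sites lost numbered 1 with equal numbers of regions and with flanks of 50 kb, and 0 to 3 as each library was left out. Sites higher without overlap numbered 1 with equal numbers of regions and 0 to 6 with a library left out (6 without SNDX-5613 replicate 3). Sites lower without overlap numbered 0 under the 50% cover rule and 1 to 4 with a library left out (4 without SNDX-5613 replicate 3). With fewer libraries, sites count as lost or as not overlapping more easily. Without SNDX-5613 replicate 3, 14.3% of all shared sites were higher and 14.4% lower without overlap, against 8.54% and 8.08% with all 6 libraries. Shares under the other alternatives are not given here, so these changes are not results about the members. The group difference in peak regions was −24.8 to 1.67 with a library left out, positive only without SNDX-5613 replicate 3, and 2.67 with equal numbers of regions. The median percentile difference was −1.09 to −0.36 over the other settings and −0.45 to 0.28 with a library left out. It was positive without DMSO replicate 1, DMSO replicate 3 or SNDX-5613 replicate 3. The TCF/LEF share was 5.11% within 250 bp of the summit and 11.7% (10.1% of all sites) with the motif widened to CTTTG followed by AA, AT, TA or TT.

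The sign of a promoter's difference held in 76 of 92 values. Ranked by fold enrichment, it was 2.5 at CTNNB1, 9.66 at AXIN1 and 4.92 at APC. Leaving out a library changes the set of shared sites that is ranked, to 59985 without SNDX-5613 replicate 3 from 33405. Its percentiles are therefore on another scale. With a library left out the difference ranged from −2.03 to 1.03 at CTNNB1, −7.81 to 1.73 at AXIN1, −10.12 to 0.027 at AXIN2, −3.57 to 0.77 at APC, −0.075 to 10.79 at LGR5 and −14.80 to 6.05 at NKD1. It kept its sign but moved by over 1.5 times at TCF7L2 (−8.42 without DMSO replicate 1, −1.95 without DMSO replicate 2 and −1.37 without SNDX-5613 replicate 1), GLUL (0.93 without SNDX-5613 replicate 1 and 9.62 without replicate 2) and TBX3 (6.06 without SNDX-5613 replicate 1 and 3.12 without replicate 2), and the lowest adjusted p of any of these promoters was 0.15 (TBX3, without SNDX-5613 replicate 3).

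Same-numbered libraries did not deviate together (correlations of 0.00053 to 0.016), so the numbers were not taken as pairs. With the replicate block limma called 0 member sites, and 63 higher and 10 lower sites in the series against 65 and 9 without it. The median of the paired differences, −0.50, equals the unpaired value by construction and so says nothing about pairing.

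Depth limits what can be said: 56 sites rest on 1 library, the shallow library misses weaker sites, and simulated shifts of 0.5 normal scores were not recovered with 3 libraries per group.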
